A study of Mus musculus with 6 samples.

Results

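The proximal stretch of mouse chromosome 4 from 20 to 50 Mb held 847 of the 89410 ATAC-seq regions that were built from 6 peak lists. A region was made wherever peaks of the lists shared 1 bp or more, and it was a member of the segment when it began between 20 and 50 Mb of chromosome 4 in mm10. The segment was chosen by the peak calls themselves, for the many sites at which OB Fam20c KO replicates 1 and 2 had a peak while every OB Fam20c f/f library lacked one. All contrasts of KO with f/f below are therefore descriptions of these libraries and carry no test. No filter on low values was applied, so all 847 members are accounted for.

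The study asked how loss of Fam20c, a kinase of the secretory pathway that phosphorylates secreted proteins, alters accessible chromatin in osteoblasts. OB Fam20c f/f is an immortalized mouse osteoblast line with floxed Fam20c alleles, labelled as the control, and OB Fam20c KO was derived from it by infection with a lentivirus carrying Cre recombinase, so both groups share the floxed, immortalized background. Whether the KO line is 1 clone was not given in the sources used here. There were 3 libraries per group, and the labels number them without saying whether they came from separate cultures.

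In ATAC-seq the Tn5 transposase inserts sequencing adapters into DNA that is not covered by nucleosomes. Stretches with many insertions are called as peaks, which are typical of active promoters, enhancers and insulators. The segment includes long gene-poor stretches around neural developmental genes such as Pou3f2 and Epha7, and gene-dense stretches with many housekeeping genes. It also includes Bach2, a transcription factor of the basic leucine zipper family best known from lymphocytes, and Tgfbr1, a receptor of TGF-beta.

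The authors called peaks in each library at a q-value of 0.05. A missing peak means that the site did not pass that threshold at the depth of that library, not that the chromatin was closed. Each deposited peak has a fold over the local background and a −log10 q, which measures how far the peak stands above that background given its read number. Both depend on the library, so each region was described by its standing, the percentile of its highest peak within its own list, where 100 is the highest peak of the list. The f/f lists held 64033, 62781 and 74797 peaks, and the KO lists 64141, 64582 and 32958. KO replicate 3 thus had the shortest list by far, and the rule that defined the segment did not use it. A standing in its list is taken among far fewer peaks than a standing in the other lists.

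As checks of the labels, the gene span of Fam20c with 3 kb at either end held 3 regions, with a peak at 2, 1 and 2 of them in the f/f libraries and at 2, 1 and 1 in the KO libraries. These peaks do not show whether the floxed part was deleted. Of 10 osteoblast markers 8 had a peak in every library, whereas Ibsp and Bglap, which encode bone sialoprotein and osteocalcin, had none in any list. In at least 1 library, peaks also lay at 3 of 3 haematopoietic, 3 of 3 endothelial and 2 of 3 epithelial marker genes, and Epcam had none.

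A member was called gained when KO replicates 1 and 2 both had a peak there and all f/f libraries lacked one. Gained members touched only 3 promoter windows, where a window is the stretch from 250 bases before to 50 bases after an annotated start. Another window lay under the member that stood highest in KO relative to f/f among those with a peak in both groups. These 4 sequences are shown because the gained members and the largest difference towards KO touched them, and they were picked after their values were seen. They are RefSeq sequences of GRCm38.p6, whose coordinates are those of mm10, written 5′ to 3′ on the strand of the gene. All 4 windows belong to genes annotated as long non-coding RNAs, of which Gm30731 is also known as Pnky, a non-coding RNA of neural stem cells. Capitals mark an E-box match.

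Gm30731, chr4:22490298-22490597, plus strand, beside Pou3f2: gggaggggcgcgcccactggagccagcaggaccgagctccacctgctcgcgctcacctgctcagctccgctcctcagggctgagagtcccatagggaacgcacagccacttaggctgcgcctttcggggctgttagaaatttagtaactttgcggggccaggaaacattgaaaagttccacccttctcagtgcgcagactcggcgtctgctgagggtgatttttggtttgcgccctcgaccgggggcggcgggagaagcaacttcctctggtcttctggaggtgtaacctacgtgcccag
Gm38450, chr4:23260534-23260833, plus strand: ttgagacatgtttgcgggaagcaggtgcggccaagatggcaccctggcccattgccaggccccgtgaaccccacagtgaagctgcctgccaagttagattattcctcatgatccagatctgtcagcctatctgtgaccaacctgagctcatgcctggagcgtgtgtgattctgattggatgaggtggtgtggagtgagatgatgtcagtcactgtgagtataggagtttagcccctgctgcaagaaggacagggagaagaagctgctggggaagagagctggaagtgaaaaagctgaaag
Bach2os, chr4:32571613-32571912, minus strand, antisense within Bach2: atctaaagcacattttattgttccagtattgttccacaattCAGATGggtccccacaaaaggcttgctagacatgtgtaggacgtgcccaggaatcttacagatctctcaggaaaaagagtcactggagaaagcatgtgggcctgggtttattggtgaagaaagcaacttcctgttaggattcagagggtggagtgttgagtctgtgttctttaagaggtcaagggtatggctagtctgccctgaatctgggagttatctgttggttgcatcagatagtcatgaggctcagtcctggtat
Gm33620, chr4:34991592-34991891, plus strand, within Mob3b: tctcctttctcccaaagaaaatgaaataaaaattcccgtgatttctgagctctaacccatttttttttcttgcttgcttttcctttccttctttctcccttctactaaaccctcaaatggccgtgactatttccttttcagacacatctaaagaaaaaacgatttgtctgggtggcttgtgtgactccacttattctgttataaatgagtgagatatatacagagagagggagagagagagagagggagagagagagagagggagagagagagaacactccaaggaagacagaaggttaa

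Gained members covered 300 of the 300 bases at Gm30731 and at Gm38450, and 160 at Bach2os. The Gm30731 window, which lies about the start of a non-coding gene next to the neural transcription factor gene Pou3f2, was the most CpG-rich of the 4, with a GC content of 61% and 19 CpG dinucleotides. The Gm38450 window had 53% GC and 4 CpG, the Bach2os window 45.3% and 1, and the Gm33620 window 40.3% and 3. Over all 32851 promoter windows of the annotation the medians were 52.7% GC and 7 CpG.

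The letters of an AP-1 site (TGACTCA or its reverse complement TGAGTCA) were found in none of the 4 windows, and 5.2% of all promoter windows held them. The letters of an E-box (CAGCTG, or CATCTG and its reverse complement CAGATG) occurred once, in the Bach2os window, and 30.6% of all windows held them. That match lay in the part of the window that the gained member did not cover. AP-1 sites are bound by Fos and Jun proteins, and E-boxes by basic helix-loop-helix factors. A match is not a bound site, and a window without one says nothing about the factor.

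Of the 847 members, 71 were gained, a share of 8.38%. Its 95% Wilson interval, which covers counting error only, ran from 6.70% to 10.4%. Over the whole genome 2.90% of regions were gained (2590 of 89410), and on the rest of chromosome 4 it was 106 of 4648, or 2.28%. This contrast is what the rule selected, so nothing is read from it. The opposite class, lost members, had a peak in all 3 f/f libraries and in neither KO replicate 1 nor 2. It held 12 members or 1.42%, against 3.78% of all regions and 8.13% on the rest of chromosome 4. Of the 378 lost regions on the rest of chromosome 4, 206 lay in a stretch of 15 Mb that begins at 90 Mb. None of the 12 had a peak in KO replicate 3.

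KO replicate 3 had a peak at 9 of the 71 gained members, or 12.7%. Over the genome it had one at 6.18% of the gained regions. Regions gained with a peak in all 3 KO libraries made up 1.06% of the members, against 0.179% of all regions. The other 62 gained members had no peak in this library. In these bulk libraries, a site that is open in more cells and one that is more open in each cell cannot be told apart. Read counts and genomic DNA were not analysed here, and the copy number of the segment in the KO line was not tested.

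A peak was present at 489, 477 and 591 members in the f/f libraries and at 665, 654 and 332 in the KO libraries. As a share of its own list, the segment took 0.793%, 0.774% and 0.808% of the f/f peaks and 1.06%, 1.03% and 1.04% of the KO peaks. All 3 KO lists thus gave the segment a larger share than every f/f list, including the short list of KO replicate 3.

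**Figure D1:**
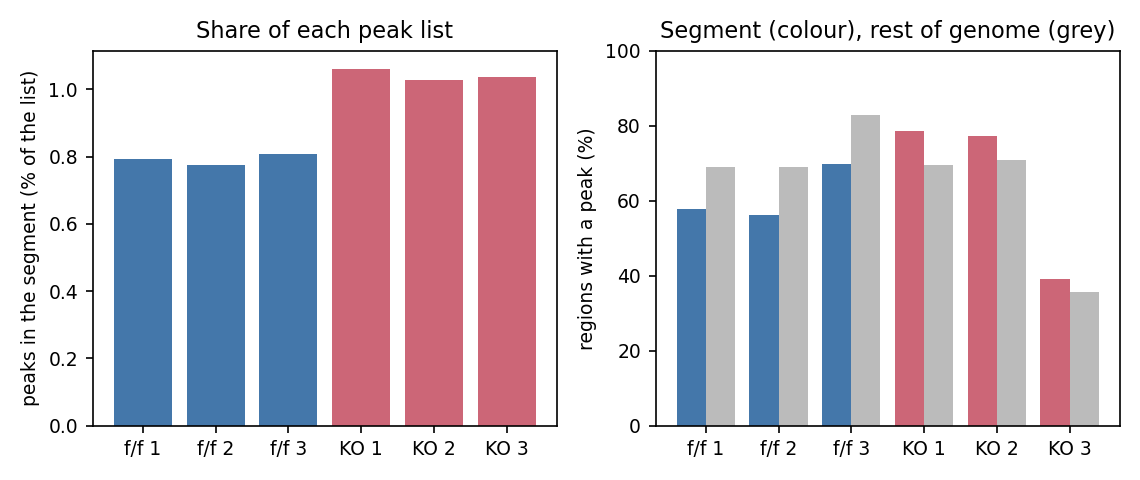
Left, peaks in the segment as a percentage of each library's own peak list. Right, percentage of regions with a peak in each library, for the 847 members (blue for f/f, red for KO) and for the rest of the genome (grey). The f/f lists had 0.774% to 0.808% of their peaks in the segment and the KO lists 1.03% to 1.06%.

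The remaining members fell into few classes. A peak in all 6 libraries was seen at 280 members (33.1%, against 33.4% of all regions), and a further 109 had one in every library but KO replicate 3. No f/f library had a peak at 217 members (25.6%, against 10.9% of all regions), and no KO library at 66 (7.79%, against 20.4%). Of those without an f/f peak, 71 were the gained members, 123 had a peak in KO replicate 1 alone or KO replicate 2 alone (14.5% of members, against 6.86% of all regions), and 21 in KO replicate 3 alone (2.48%, against 1.09%). A peak in a single f/f library and nowhere else was seen at 40 members (4.72%, against 11.9%). The members had a median width of 584 bp and the gained ones of 450 bp, against 639 and 385 bp over the genome.

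Gained members were spread over the segment. Of its 30 intervals of 1 Mb, 23 held a gained member, 7 held a lost one and 3 held no region at all. The last interval, from 49 Mb, held no gained member and 3 lost ones among 14 regions. The interval with the most gained members, 11 of its 92 regions, was the one from 32 Mb, which carries Bach2 and Ankrd6. Some intervals with few regions had larger shares, such as 3 of 7 from 23 Mb. In windows of 5 Mb the gained share was highest in the gene-poor part, with 9 of 56 regions (16.1%) from 20 to 25 Mb, 9 of 40 (22.5%) from 25 to 30 Mb and 3 of 15 (20%) from 35 to 40 Mb. It was 20 of 196 (10.2%) from 30 to 35 Mb. The gene-dense windows had the lower shares, with 10 of 258 (3.88%) from 40 to 45 Mb and 20 of 282 (7.09%) from 45 to 50 Mb. The window from 40 to 45 Mb held 103 protein-coding genes and the one from 25 to 30 Mb held 5.

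Beyond the ends the picture differed on the 2 sides. From 15 to 20 Mb 4 of 41 regions were gained and 0 lost, and from 10 to 15 Mb 4 of 122 were gained and 2 lost. From 50 to 55 Mb 3 of 55 were gained and 2 lost, and from 55 to 60 Mb 3 of 249 were gained and 21 lost. Lost regions made up 3.64% of the regions from 50 to 55 Mb and 8.43% of those from 55 to 60 Mb. The share was 1.42% in the segment, 3.78% over all regions and 8.13% on the rest of chromosome 4. The share from 50 to 55 Mb was thus above that of the segment but near that of the genome. The share from 55 to 60 Mb was above both and near that of the rest of the chromosome. However, 206 of the 378 lost regions on the rest of the chromosome lay in the stretch of 15 Mb that begins at 90 Mb. The lost share of that stretch was 25.5%, so the rest of the chromosome is not an even comparator. From 15 to 20 Mb, outside the segment, the gained share was 9.76%, above the 8.38% of the segment itself.

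**Figure D2:**
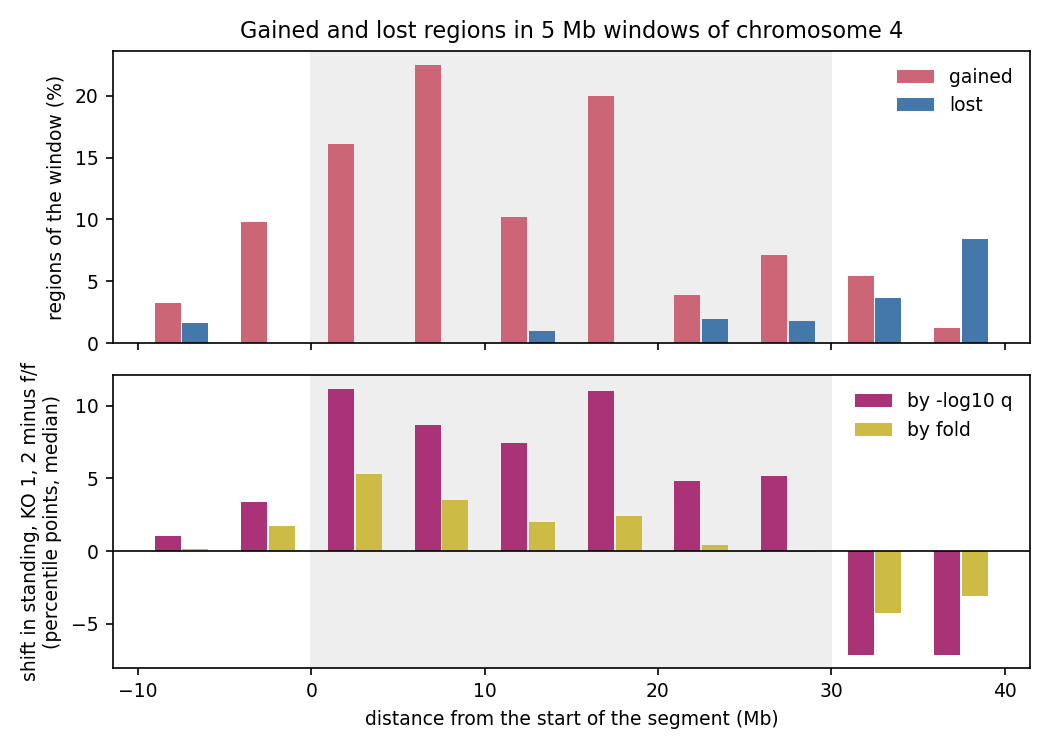
Top, percentage of the regions of each 5 Mb window of chromosome 4 that were gained (red) or lost (blue). Bottom, median over regions with a peak in the 5 libraries other than KO replicate 3 of the standing in KO replicates 1 and 2 minus that in f/f, by −log10 q (purple) and by fold (yellow), against the distance from the start of the segment, which is shaded. The shift by −log10 q lay between 4.82 and 11.2 points in the 6 windows of the segment and was −7.12 and −7.13 points in the next 2.

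The members at the ends were as follows. The last region before the segment, chr4:19951637-19952349, had a peak in f/f replicates 2 and 3 alone, and the one before it, at Atp6v0d2, a subunit of the proton pump of osteoclasts, in 4 libraries. The first member, chr4:20041622-20042607 at Ggh, had a peak in all 6 libraries, with −log10 q of 42.0, 42.4 and 114 in f/f and 87.9, 131 and 13.5 in KO. The second, in Nkain3, had 1 peak, in f/f replicate 3. The last 2 members, chr4:49937311-49937696 and chr4:49946925-49947512 beyond Grin3a, were both lost. Of the first regions beyond, chr4:50403564-50404185 had a peak in 2 f/f libraries only, and chr4:50526127-50527100 had peaks in all 6. The standings of the latter by −log10 q were 73.5, 68.3 and 77.2 in f/f and 49.7, 57.0 and 12 in KO. The value of KO replicate 3 comes from a much shorter list and is not directly comparable.

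Members with peaks in both groups could be compared by standing. By −log10 q, the 389 members with a peak in the 5 libraries other than KO replicate 3 had median standings of 57.9, 59.0 and 65.4 in f/f and of 70.2 and 69.6 in KO replicates 1 and 2. Both KO medians lay above all f/f medians. The median shift over members, the mean of the KO standings minus the mean of the f/f standings, was 5.81 points and ranged from 3.33 to 7.49 over the 6 pairs of libraries. With all lists shortened to the length of the shortest, it was 12 points. Of the 389, 327 (84.1%) stood higher in KO, against 43.0% in the rest of the genome, where the median shift was −1.10.

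By fold over background the same members differed little. The medians were 62.5, 63.0 and 67.9 in f/f and 66.6 and 66.8 in KO replicates 1 and 2, so that the groups overlapped. The median shift was 0.964 points, with pairs of libraries from −0.156 to 2.09, and 214 of 389 (55%) stood higher in KO. In the rest of the genome the shift by fold was −0.389. Ranked only among regions with a peak in these 5 libraries, the shift by fold was 2.08 in the segment and 0.242 in the rest of the genome. The shift of the segment was thus seen by −log10 q in every pair of libraries and by fold not in every pair.

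The rule that defined the segment used the f/f lists but not KO replicate 3, so a comparison of the latter with f/f is also a description. Each list was ranked among the 29849 regions of the genome with a peak in all 6 lists, of which 280 were members. The median standings of these 280 members by −log10 q were 39.9, 41.7 and 41.9 in f/f. They were 59.9 and 58.0 in KO replicates 1 and 2, and 56.6 in KO replicate 3. The third KO library thus lay with the other two and above all f/f libraries. Its median difference from the f/f libraries was 9.52 to 9.96 points, and −0.278 to −0.157 in the rest of the genome. By fold its median was 53.1, against 46.1, 48.3 and 50.0 in f/f and 51.2 and 49.9 in the other KO libraries. That difference was 1.6 to 2.84 points in the segment and 0.745 to 1.21 in the rest of the genome.

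**Figure D3:**
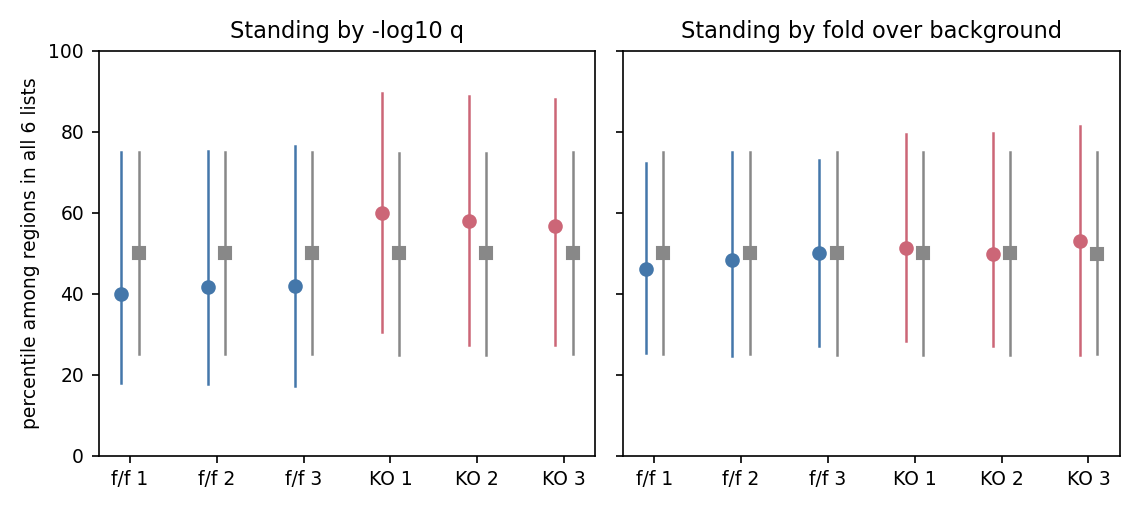
Median standing (points) and interquartile range (lines) of the 280 members with a peak in all 6 lists (blue for f/f, red for KO) and of the other regions of the genome with a peak in all 6 lists (grey), as percentiles among all such regions. By −log10 q (left) the KO medians of 56.6 to 59.9 lie above the f/f medians of 39.9 to 41.9, and by fold (right) the medians lie between 46.1 and 53.1.

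Counted member by member, 235 of the 389 (60.4%) stood higher by −log10 q in both KO replicates 1 and 2 than in any f/f library, and 19.3% of such regions did so over the genome. In the other direction there were 24 members (6.17%), against 27.8%. By fold the counts were 95 (24.4%, against 20.1%) above and 58 (14.9%, against 22.4%) below. With all 3 KO libraries, 178 of 280 members (63.6%) stood above all f/f libraries by −log10 q, against 21.1% of regions, and 7 (2.5%) below, against 20.9%. By fold 45 (16.1%) stood above, against 15.5%, and 19 (6.79%) below, against 13.9%. The shares by fold above f/f were near those of the genome, and those by −log10 q were not. The shares below f/f were lower than those of the genome by both measures.

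By interval of 1 Mb, the shift by −log10 q was above 0 in 24 of the 25 intervals that had such members, and by fold in 18 of them. The exception by −log10 q was the last interval, from 49 Mb, with −3.32 over 3 members. It was 11.2 points from 20 to 25 Mb, 8.70 from 25 to 30 Mb, 7.45 from 30 to 35 Mb, 4.82 from 40 to 45 Mb and 5.13 from 45 to 50 Mb. From 35 to 40 Mb it was 11.0, over only 4 members. The neighbouring window from 15 to 20 Mb had 3.34 and that from 10 to 15 Mb 1.03. A stretch of the same chromosome with the opposite pattern, which begins at 90 Mb and is 15 Mb long, had 809 regions, of which 2 were gained and 206 lost, with a shift of −21.6 points by −log10 q and −4.48 by fold.

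Members at promoters, in genes and between genes all had a shift towards KO by −log10 q. By fold, the shift at promoters was near that of the rest of the genome. In genes it was negative and between genes positive, and both lay above the rest of the genome. Promoter windows were touched by 128 members, of which 3 were gained (2.34%, against 0.902% in the rest of the genome) and 112 had a peak in all 6 libraries. Of the 484 other members in or within 3 kb of a gene, 39 were gained (8.06%, against 2.89%). Of the 235 members outside genes, 29 were gained (12.3%, against 3.67%). The shift by −log10 q was 5.38, 5.82 and 8.13 points in these classes, against 0.0683, −1.78 and −2.08 in the rest of the genome. By fold it was 1.34, −0.390 and 2.20 points, against 1.44, −1.31 and −1.96. Outside genes lay 40.8% of the gained members, 27.7% of all members and 33.7% of the gained regions of the genome. Of the 359 promoter windows in the segment, 152 had a peak in all 6 libraries, and each library had a peak at 156 to 165 of them.

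The gained peaks were mostly low in their lists, as gained regions were over the genome. Their mean standing in KO replicates 1 and 2 had a median of 18.1 by −log10 q and 20.6 by fold, against 18.1 and 19.9 for the gained regions of the genome. By −log10 q it was 50 or more at 2 members, from 25 to below 50 at 25 and below 25 at 44. By fold the numbers were 6, 24 and 41. By −log10 q, the 9 with a peak in KO replicate 3 had a median of 31.3 and the other 62 one of 16.0. The nearest f/f peak lay a median of 9996 bp away, with a range from 120 to 432183 bp. At 36 gained members it was within 10 kb, and at 7 it was over 100 kb away.

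**Figure D4:**
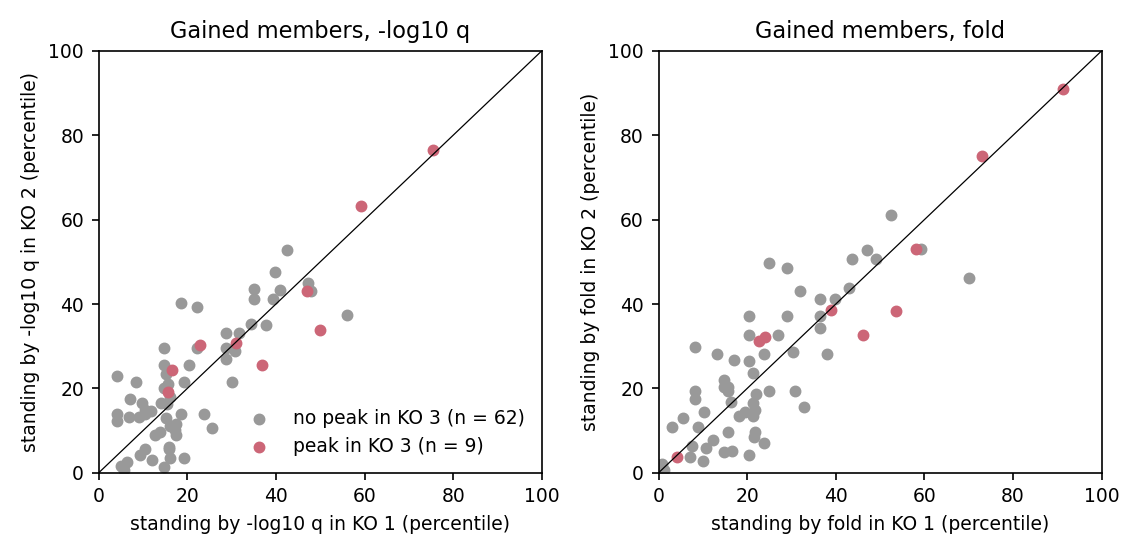
Standing of the 71 gained members in KO replicate 1 (horizontal) and KO replicate 2 (vertical), by −log10 q (left) and by fold (right), in percentiles of each library's own list. Red points are the 9 with a peak in KO replicate 3, and the line marks equal standing. By −log10 q 2 members have a mean standing of 50 or more and 44 one below 25.

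The highest gained member, chr4:23260429-23261309, lay over the whole promoter window of Gm38450 printed above. Its −log10 q was 90.4, 122 and 12.8 in KO replicates 1, 2 and 3, and its fold over background 15.1, 15.2 and 5.56. Its standing by −log10 q was 75.5, 76.5 and 44.5. This was a strong peak in KO replicates 1 and 2, and in KO replicate 3 it stood below the middle of the list. The nearest peak of any f/f library was 321815 bp away. The nearest protein-coding gene, Pou3f2, was 772063 bp away.

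The second, chr4:28783850-28784508, lay 28558 bp from Epha7, which encodes an ephrin receptor that guides axons. Its −log10 q was 42.8, 63.8 and 4.54 in the KO libraries, with folds of 10.7, 11.2 and 3.60. These 2 were the only gained members with a mean standing of 50 or more by −log10 q, and 6 reached it by fold. Epha7 itself had 2 regions, each with a peak in all 6 libraries, and 6 gained members outside genes had it as their nearest protein-coding gene, at distances from 28558 to 791272 bp.

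The next 3 lay outside genes and had no peak in KO replicate 3. The member chr4:47587085-47587982 had a −log10 q of 21.9 and 40.1 in KO replicates 1 and 2, and Sec61b, a subunit of the translocon of the endoplasmic reticulum, was its nearest protein-coding gene. The member chr4:47780984-47781503, nearest to the nuclear receptor gene Nr4a3, had 37.5 and 21.3. The member chr4:44295967-44296186, which lay 4723 bp from the mitotic kinase gene Melk, had 26.3 and 29.0. Together, 4 gained members outside genes were nearest to Sec61b, 3 to Map3k7, which encodes the TGF-beta activated kinase TAK1, and 2 each to Melk, Nr4a3 and Col15a1, which encodes a basement membrane collagen.

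Of the rest of the 10 highest, chr4:24797276-24797739 lay in Klhl32, a kelch-like gene, with a −log10 q of 27.1 and 26.8 in KO replicates 1 and 2. The member chr4:20860510-20861231, which lay 79801 bp from Nkain3, had 26.1, 26.8 and, in KO replicate 3, 3.50. The member chr4:40776455-40777415 at the non-coding gene Gm34213 and the pseudogene Psenen-ps had 19.6 and 32.6, but folds of only 3.24 and 3.48, so that its mean standing was 43.7 by −log10 q and 12.3 by fold. The member chr4:46186551-46186867 in Xpa, a gene of nucleotide excision repair, had 20.5 and 27.3. The member chr4:32939530-32940263 in Ankrd6 had 29.2, 18.6 and 3.82. Across these 10, KO replicate 3 had a peak at 4.

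The other gained members with a peak in KO replicate 3 had low values in that library. They were chr4:26675257-26675591 in the non-coding gene 4930548K13Rik, with a −log10 q of 17.6, 13 and 2.82, and chr4:46291701-46292346 between genes, with 13.9, 16.2 and 4.01. Then came chr4:21688496-21689205, which lay 2533 bp from Prdm13, a neural zinc finger gene, with 9.52, 16.0 and 3.42. The member chr4:29732467-29732978, far from any coding gene, had 7.12, 12.3 and 3.50. The last, chr4:32387764-32388421 in Bach2, had 6.74, 9.49 and 3.84. All of these had their lowest value in KO replicate 3.

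The lost members with the highest standing in f/f were of middle height. They were chr4:41506857-41507320 at 1110017D15Rik, with a −log10 q of 13.1, 14.9 and 28.8 in the f/f libraries, chr4:43976253-43976657 in Glipr2, with 15.2, 13 and 18.4, and chr4:32551056-32551595 in Bach2, with 12.8, 9.50 and 21.3. Their mean standings in f/f were 40.8, 37.1 and 34.1. Over all 12 lost members the mean standing in f/f ran from 12.3 to 40.8. The mean standing of the 71 gained members in KO replicates 1 and 2 had a median of 18.1. The 10 highest gained members stood above every lost one, but they were picked from the larger set.

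Among members with peaks in both groups, the largest difference towards KO was at chr4:34990826-34992195, which covered the Gm33620 window printed above and lies within Mob3b, a gene of the MOB kinase activator family. Its −log10 q was 5.38, 3.91 and 8.83 in f/f and 81.3, 83.1 and 8.82 in KO, and its fold 4.12, 3.0 and 4.10 against 11.5, 9.96 and 4.40. Its standing by −log10 q was 12.8, 7.91 and 20.3 in f/f and 73.4, 69.0 and 32.8 in KO. The groups did not overlap in standing, although the −log10 q of KO replicate 3 and of f/f replicate 3 were nearly equal. The standing in KO replicate 3 was taken in a much shorter list.

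The next largest were chr4:33524414-33525159, which lay 21800 bp from the mRNA capping enzyme gene Rngtt, with a −log10 q of 8.49, 3.91 and 10.2 in f/f and 73.7, 86.5 and 12.7 in KO. At the chemokine gene Ccl27a, chr4:41773223-41773963 had 5.38, 5.62 and 13.1 in f/f and 55.8 and 52.6 in KO replicates 1 and 2, with no peak in KO replicate 3. The member chr4:23865956-23866570, far from coding genes, had 5.38, 3.38 and 5.64 against 18.5, 50.4 and 6.64. In Ankrd6, chr4:32915661-32917139 had 7.68, 17.1 and 22.2 against 79.5, 103 and 20.5. The mean standing of KO replicates 1 and 2 exceeded that of f/f by 57.5, 52.5, 43.2, 38.1 and 37.9 points in these 5.

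The largest differences towards f/f were smaller. The member chr4:49682535-49683541 at Grin3a, a subunit of NMDA receptors, and the overlapping Ppp3r2 had a −log10 q of 32.0, 22.2 and 56.0 in f/f and 7.12 and 21.3 in KO replicates 1 and 2. The member chr4:47020304-47021743 in Anks6, a gene of primary cilia, had 8.49, 8.81 and 23.0 against 3.98 and 5.29. The member chr4:43058563-43059466 in Unc13b, a gene of vesicle priming, had 22.7, 16.3 and 28.5 against 7.83 and 19.6. The differences were −30.7, −22.9 and −19.5 points, and none of the 3 had a peak in KO replicate 3.

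The members with the highest standing over all 6 lists were at the starts of widely expressed genes. The member chr4:32614906-32615974 at Casp8ap2, which is needed for histone gene expression, had a −log10 q of 250, 263 and 401 in f/f and 591, 702 and 136 in KO. Those at Kif24 and Nudt2 (chr4:41464446-41465556) and at Aco1, the iron regulatory aconitase (chr4:40142484-40143966), had mean standings of 98.6 and 98.5 over the 6 lists. At Casp8ap2 the standing was 98.6 to 98.9 in f/f and 99.3 to 99.8 in KO, and its standing by fold was 97.3 to 98.8 in f/f and 95.8 to 99.1 in KO. All 3 stood higher by −log10 q in each KO library than in any f/f library.

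By gene, the annotation places 500 genes in the segment, 209 of them protein-coding. A gained member lay in or within 3 kb of 39 genes, 25 of them protein-coding and 10 long non-coding RNAs. The protein-coding ones were 12% of those in the segment, against 5.32% of all protein-coding genes with a gained region. A lost member lay at 8 protein-coding genes (3.83%, against 7.87%). ATAC-seq reads have no strand, so a region shared by overlapping genes was counted for each.

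Bach2 had the most gained members, with 6 of its 47 regions. A peak was seen at 27, 28 and 32 of these regions in f/f and at 39, 39 and 18 in KO. The 6 gained members were low, with a −log10 q from 4.08 to 16.2 in KO replicate 1 and from 3.60 to 27.7 in KO replicate 2, and 1 of them had a peak in KO replicate 3. The highest was chr4:32356154-32356804. Bach2 also held 2 lost members. Of its 22 regions with a peak in the 5 libraries, 20 stood higher in KO replicates 1 and 2, with a median shift of 5.65 points by −log10 q.

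Of the other genes, 3 gained members each lay in Ankrd6, Frmpd1 and 4930548K13Rik. Ankrd6, which encodes diversin, a scaffold of Wnt and planar polarity signalling, had peaks at 7, 7 and 8 regions in f/f and at 15, 11 and 6 in KO, and its shift was 8.12 points. Frmpd1, a FERM and PDZ domain gene, had 4, 3 and 4 in f/f and 7, 7 and 3 in KO, with a shift of 17.0 points. The non-coding 4930548K13Rik had no f/f peak at all and 3, 3 and 1 in KO. Its 3 regions were all gained members, so only the count of KO replicate 3 was not fixed by the definition. Mob3b and the non-coding 4930556G01Rik had 2 gained members each. At Mob3b 6, 4 and 5 regions had a peak in f/f and 7, 9 and 5 in KO. All these genes, Bach2 included, were picked for their gained members. The higher counts of KO replicates 1 and 2 thus follow in part from how they were picked.

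The 76 listed genes of the segment all had a region. A gained member lay at 14 of them (18.4%) and a lost one at 4 (5.26%), and the share over all protein-coding genes was that given above. At 27 of the 76 every library but KO replicate 3 had a peak at the same number of regions. The lists were chosen with earlier results of these data known.

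Among receptors and signalling genes, 4 of 19 had a gained member. Besides Ankrd6, they were Il11ra1, the receptor of interleukin 11, Gabbr2, a subunit of the GABA-B receptor, and Tesk1, a kinase of the actin regulator cofilin. Il11ra1 had only 1 region, gained, with a −log10 q of 10.1 and 7.31. Gabbr2 had peaks at 11, 10 and 18 regions in f/f and at 17, 15 and 5 in KO, so that the groups overlapped. Tgfbr1 had 3 regions, with a peak at each in the 5 libraries, and none was gained. Of these genes, Grin3a and the cannabinoid receptor gene Cnr1 had shifts towards f/f, of −30.7 and −9.33 points over 1 region each.

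Among transcription factors, 4 of 12 had a gained member, namely Bach2, Pou3f2, Prdm13 and Zfp292, a zinc finger factor. The single region at Pou3f2, chr4:22489444-22490600, which covered the Gm30731 window printed above, was gained with a −log10 q of 7.33 and 5.42. Prdm13 had no f/f peak and 1, 1 and 2 in KO. The member at Zfp292 was among the weakest, with 3.88 and 3.16. Pax5, a factor of B cells, had 4, 2 and 3 regions with a peak in f/f and 4, 4 and 1 in KO, and none was gained.

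Among matrix and cytoskeleton genes, 5 of 10 had a gained member. They were Frmpd1, Coro2a, an actin-binding coronin, Cavin4, a caveolar protein of muscle, the kinesin gene Kif24, and Clta, a clathrin light chain. Coro2a had peaks at 5, 4 and 6 regions in f/f and at 9, 7 and 3 in KO, and Clta at 1, 1 and 2 against 4, 3 and 2. A gained member by definition adds a region to KO replicates 1 and 2 and to no f/f library. The higher counts of these 2 KO libraries at both genes thus follow in part from how the genes were picked. KO replicate 3 did not exceed every f/f library at either gene. Col15a1 had 11, 12 and 10 in f/f and 11, 11 and 7 in KO, and none was gained. Tmod1, a cap of actin filaments, had no gained member, but all 5 of its regions with peaks in the 5 libraries stood higher in KO, with a median shift of 16.3 points.

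**Figure D5:**
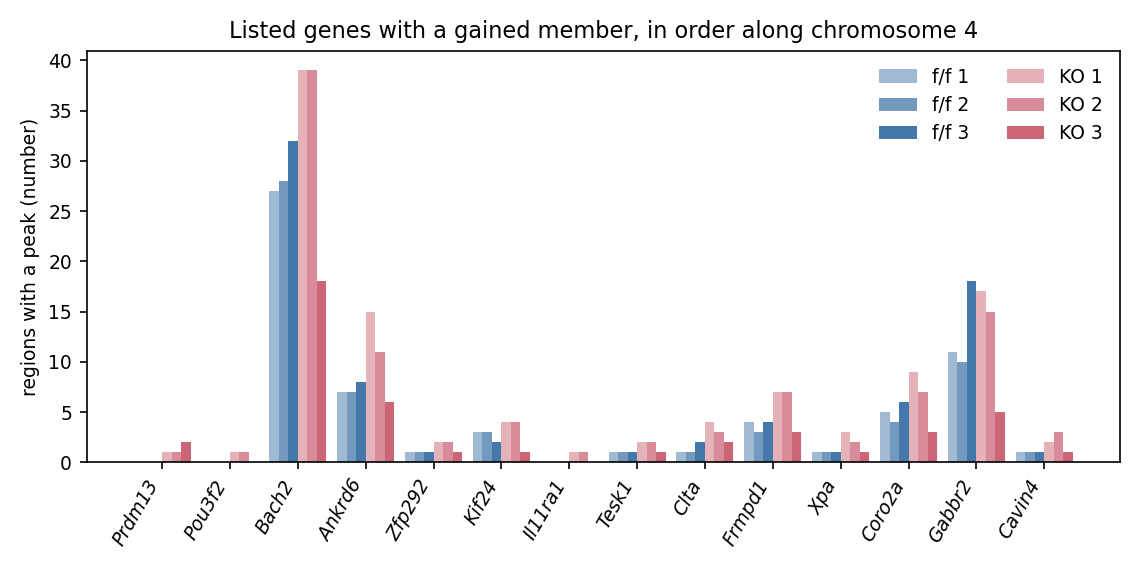
Number of regions with a peak in each library (blue for f/f, red for KO, darker from replicate 1 to 3) within 3 kb of the 14 listed genes with a gained member. Bach2 has 27 to 32 regions in f/f and 39, 39 and 18 in KO, and Prdm13, Pou3f2 and Il11ra1 have none in f/f. The genes were picked for a gained member, which raises the counts of the first KO bars by definition.

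The remaining lists had few gained members. Xpa was the only 1 of 10 genes of cell cycle, DNA replication and repair, with peaks at 1, 1 and 1 regions in f/f and at 3, 2 and 1 in KO. Neither the 10 genes of glycosylation and sugar metabolism nor the 15 of protein folding, ubiquitin and secretion had a gained member. Of all protein-coding genes of the segment, 25 of 209 had a gained member, so few would be looked for in lists this short. The lists were also chosen with earlier results known, so no difference between them is read from these counts. Of the 4 listed genes with a lost member, B4galt1, a galactosyltransferase of the Golgi, and Pigo, of GPI anchor synthesis, belong to glycosylation, Fancg, of the Fanconi anaemia pathway, to repair, and Bach2 to the transcription factors.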

How the data were processed

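The data were the deposited MACS2 peak lists of 6 ATAC-seq libraries (3 per group), grouped by their labels. The authors trimmed the reads, aligned them to mm10 with BWA and ran MACS2 2.1.2 on every library separately with a q-value threshold of 0.05. As deposited, each peak has a ratio (the fold over local background), a −log10 p, a −log10 q and a score for browsers. The −log10 p and the score were not used, and how duplicate reads were treated was not given in the sources used here.

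Peaks sharing 1 bp or more were merged into regions. The segment, the gene lists and the named loci were chosen with earlier results of these data known. A region stands for its highest peak in each list, and standings are percentiles, with ties averaged. Gene spans came from RefSeq GRCm38.p6 (49997 genes with a place) and were extended by 3 kb at either end. All 96 gene names of the lists matched. Exons and introns were not used here. Read counts were not analysed here, so no fold change between groups and no p-value was computed, and precision is limited by each list's depth. The spread over the 3 libraries of a group may be technical.

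Named were the 10 gained members highest by −log10 q, gained members with a peak in KO replicate 3, the 3 highest lost members, the 5 largest differences towards KO and the 3 towards f/f, the 3 highest members over all lists, listed genes with a gained member, the 5 genes with the most gained members, the regions at the ends, Fam20c and the cell type markers. Other genes were named with their values in view. Alternatives tried were merging only at 50% overlap, 500 bp windows about summits, a −log10 q minimum of 5, equal numbers of peaks per library, other rules for KO replicate 3, each library left out, the mean over a region's peaks, and other gene spans. The procedure was tested on simulated lists. Scripts ran in Python 3.11.15 with pandas 2.3.3, numpy 2.4.6, scipy 1.17.1 and matplotlib 3.10.9.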

Additional observations from a re-analysis of the deposited data

How the results depend on the processing

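The number of gained members was 71 and depended most on the KO libraries required. It was 9 (1.06% of members) with a peak in all 3 KO libraries, and 44 (10.7%) with every list shortened to equal length, which left 1 lost member. Leaving out each library in turn gave 71 to 143 gained members (8.60% to 17.9% of members), 12 to 22 lost members and 39 to 72 genes with a gained member. The gained number was 143 without KO replicate 2 and 130 without KO replicate 1, since 1 KO peak then sufficed, the genes then being 71 and 72. It was 103 without f/f replicate 3. The number of lost members was 22 without KO replicate 1 and 19 without KO replicate 2 or f/f replicate 1. Under the alternatives run, the gained share of the segment was 2.34 to 5.94 times that of the genome under the same alternative. The highest ratio rested on the 9 members with a peak in all 3 KO libraries. The rule selected for this contrast, so nothing is read from these ratios. The share of gained members outside genes was 56.3% with protein-coding genes only. The shift by −log10 q was 5.49 to 7.36 points and that by fold 0.659 to 1.59 when 1 library was left out. Ranked among regions with a peak in the 5 libraries, a choice made after seeing the data, they were 8.51 and 2.08. The shifts were 12 and 0.737 in lists of equal length, also a choice made after seeing the data. Neither shift turned direction under any alternative for which it was computed, which leaves out other rules for KO replicate 3. No paired analysis was possible because no test was run and no label ties the replicate numbers to a batch or culture. Peaks below the threshold in the shorter lists, above all that of KO replicate 3, cannot be seen.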
